A study of Danio rerio with 8 samples.

Results

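The regions described here are transcription start regions of whole zebrafish (Danio rerio) embryos that were less used at 16 than at 12 hours post-fertilization (hpf) in wild type. They number 295 of 19000 regions tested, a count that rests on the settings: it was 505 with a pseudocount of 0.1, and 446 or 769 with 1 pair of wild-type libraries alone. Members were chosen by the WT tag levels: a region was a member when its level was at least 1 lower at 16 hpf on the log2(RPM + 1) scale in both pairs of wild-type (WT) libraries, which is at least a 2-fold drop in RPM + 1. RPM is tags per 1000000 tags of a library. Levels came from cap analysis gene expression (CAGE), which captures capped RNAs and sequences their first bases. The study had 4 groups of 2 libraries each: jam3b-sa37 embryos at 16 hpf, jam3b-sa37 embryos at 12 hpf, WT embryos at 16 hpf and WT embryos at 12 hpf. The sa37 allele is one of jam3b, which encodes a junctional adhesion molecule, a cell surface protein of cell contacts. The labels do not give the number of embryos per library or say whether sa37 embryos were homozygous. They also do not say whether the 2 libraries of a group came from separate clutches, so p-values rest on spread among these libraries, which may be technical.

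A tag cluster in CAGE mostly marks where RNA polymerase II begins a transcript, and its width reflects the promoter and also how tags were clustered. Narrow clusters are typical of promoters with a TATA box, which often serve tissue-restricted genes, and broad clusters of CpG-rich promoters, which often serve genes used in most cells. Between these stages a zebrafish embryo passes through early and mid somitogenesis: the body axis extends, somites form, and genes of gastrulation and early patterning give way to genes of differentiating tissues. A capped RNA seen at a given stage may have been made at that stage or left from earlier, since CAGE reads the RNA present. In whole embryos, fewer cells that hold an RNA and less of it per cell cannot be told apart.

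The libraries fell into a first set, replicate 1, with 30353 distinct clusters and an implied 11700000 to 17300000 tags per library, and a second set, replicate 2, with 42082 clusters and 17500000 to 24100000 tags. The sets use different cluster lists, so the replicate number and the list cannot be told apart. Values of a region are given with replicate 1 before replicate 2. In replicate 1 the smallest values listed above 0 were 0.51 to 0.55 RPM, so a 0 there means a level below about that. In replicate 2, 3 tags correspond to 0.125 to 0.172 RPM. Regions carry coordinates of danRer10, the build named in the submitters' processing notes, and no gene names, since no annotation or genome of that build was used here. The jam3b gene and markers of embryonic tissues were for that reason not analysed here.

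The sa37 stage differences were not used to choose the members, although the sa37 levels entered the minimum mean of 1 RPM and sa37 files share the cluster lists. In the sa37 libraries the stage difference had the same direction for most members. The median difference between 16 and 12 hpf in sa37 was -1.20 over the 295 members, against 0.12 over the 19000 tested regions. The middle range of the members, between the first and the third quartile, ran from -1.63 to -0.84. Both sa37 pairs were lower at 16 hpf in 266 members (90.2%), where 24.4% of all tested regions had both pairs lower. In 0 members were both pairs higher, against 47.8% of all tested regions. One pair was lower and the other higher in 10 members (3.4%), against 26.1% of all tested regions. A pair had a difference of exactly 0 in 19 members (6.4%), against 1.7% of all. A pair listed at 0 RPM at both stages, as at chr10:12049633-12049656, counts as such.

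Members were next counted by a test of the sa37 stage difference, limma on log2(RPM + 1) fitted to all 19000 regions with Benjamini-Hochberg adjustment over all of them. The spread in this fit comes from all 8 libraries. The WT libraries that chose the members thus enter each SE and adjusted p. Adding the replicate number as a block takes out the shift that libraries of the same number share. Block-fit p-values therefore measure what is left, and not the full spread between the 2 libraries of a group. At chr15:19902699-19902874 the SE was 0.63 without the block and 0.14 with it. With the replicate number as a block, 196 of the 295 members were lower at 16 hpf in sa37 at an adjusted p under 0.05, which is 66.4%, against 2.84% of all tested regions called lower. No member was called higher, although 11.5% of all tested regions were. Without the block, 0 of the 295 members and 0% of all regions were called lower, while 146 members (49.5%) had an unadjusted limma p under 0.05 and a lower value, against 1.4% of all regions. Single members are described as called where they passed in the block fit, and none of them passed without the block. Some called members were far from passing there. The limma adjusted p without the block was 0.0518 at chr12:30645939-30646116, but 0.509 at chr9:46615217-46615391, 0.553 at chr2:15046062-15046089 and 0.848 at chr3:31967883-31968206. Fitted to the sa37 libraries alone, the block count was 228, against 3.78% of all regions, and the count without the block was 0. That fit has few libraries from which to measure the spread of a single region. With a pseudocount of 0.1 the block count was 109, against 1.04% of all regions, and after quantile normalization the count without the block was 45, against 0.274%. With 1 sa37 library left out, the block takes its shift from the complete groups, which include both WT groups. The WT libraries then enter the sa37 difference itself. Without sa37 at 16 hpf replicate 1, the median sa37 difference over the members was -0.92 without the block and -1.07 with it. Each sa37 library mattered to the block count. It was 55 without sa37 at 16 hpf replicate 1, 105 without sa37 at 16 hpf replicate 2, 92 without sa37 at 12 hpf replicate 1 and 102 without sa37 at 12 hpf replicate 2, where 0.342%, 0.947%, 0.737% and 1.04% of all regions were called.

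By fold alone, 137 members (46.4%) were lower by at least 1 in both sa37 pairs, against 1.22% of all tested regions. The same rule set on the sa37 pairs chose 231 regions. The 137 shared regions are 46.4% of the WT list and 59.3% of the sa37 list. As the members were chosen for large WT differences, and 1.55% of all tested regions met that rule, the sizes of the WT and sa37 differences are given side by side and not compared. The median WT difference over members was -1.59.

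**Figure D1:**
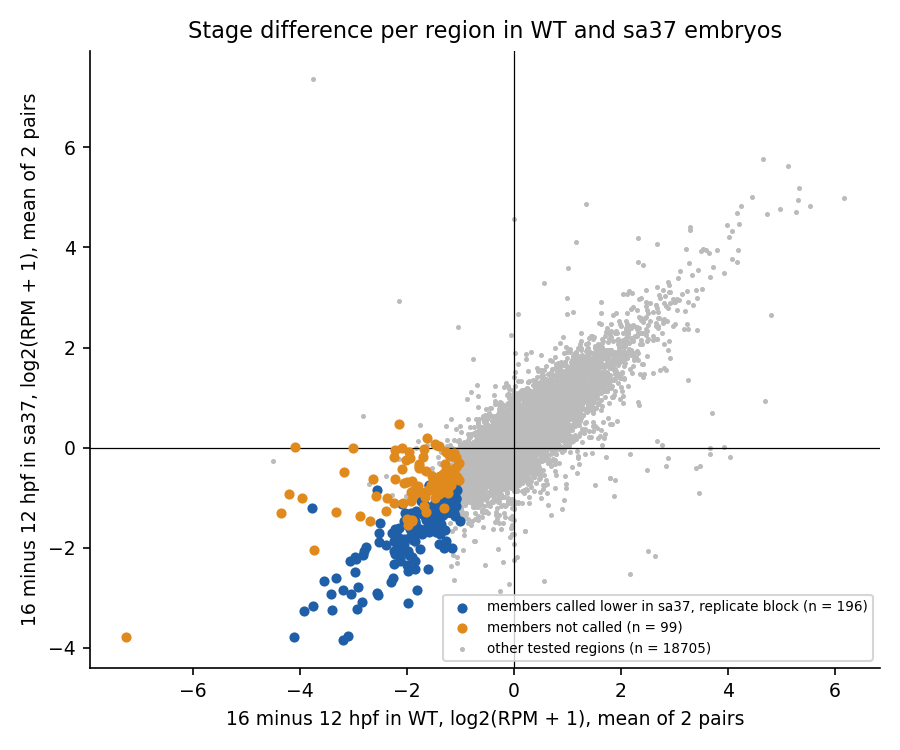
Each point is a tested region, with the 16 minus 12 hpf difference in WT embryos on the x axis and in sa37 embryos on the y axis, both on the log2(RPM + 1) scale as the mean of 2 pairs. The 196 members called lower in sa37 with the replicate block lie at the lower left, and the 99 members that were not called have a median sa37 difference of -0.66 and run from the chromosome 20 region at -3.78 to 0.48.

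The members together held 4618 and 5989 RPM in sa37 embryos at 16 hpf, against 12505 and 15593 RPM at 12 hpf. In WT embryos they held 4244 and 4257 RPM at 16 hpf, against 14789 and 14389 RPM at 12 hpf. The total was thus lower at 16 hpf in every pair of libraries, in WT by the choice of members. At 12 hpf the median member stood at 10.4 RPM in sa37 and 10.8 RPM in WT, against 7.55 and 7.40 RPM for all tested regions. At 16 hpf it stood at 2.84 RPM in sa37 and 2.27 RPM in WT, against 8.94 and 8.22 RPM for all tested regions.

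The level left at 16 hpf, as a percentage of the mean RPM at 12 hpf, had a median of 33.9% in sa37 over the 293 members with tags at 12 hpf in sa37, with quartiles of 20.5% and 49.1%. In all tested regions the median in sa37 was 109.1%. In WT, where the rule allows at most about 50%, the members' median was 22.6% with quartiles of 12.8% and 33.6%. Under 10% was left in 32 members in sa37 and in 59 members in WT. At least 1 of the 16 hpf libraries was listed at 0 for 68 members in sa37 (23.1%) and 77 in WT (26.1%), against 3.3% and 4.8% of all tested regions. Both were listed at 0 for 4 members in sa37 (1.4%) and 2 in WT (0.7%), against 0.3% of all tested regions in either genotype. Both held at least 1 RPM for 184 members in sa37 (62.4%) and 168 in WT (56.9%), against 87.5% and 86.0% of all.

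**Figure D2:**
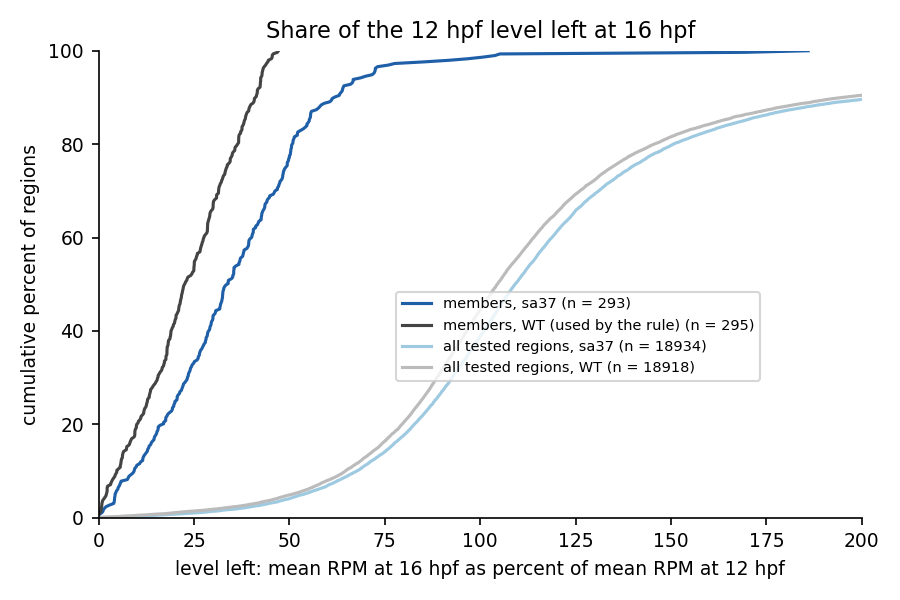
The x axis gives the mean RPM at 16 hpf as a percentage of that at 12 hpf, and the y axis the cumulative percentage of regions, for the members and for all tested regions in sa37 and in WT embryos. The members' curve for sa37 reaches its middle at 33.9%, against 109.1% for all tested regions in sa37, and the WT curve of the members ends at 47.1% because of the rule.

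The 8 members with the highest level at 12 hpf in WT are described first, and all stood far above the members' median of 10.8 RPM. In these, as in all members, each WT pair was lower at 16 hpf by the rule. Separation of the WT stages is thus in part by choice. The strongest lay at chr5:3244048-3244537 on the minus strand and was 489 bases wide as merged. Its main cluster was 488 bases wide in the first list and 49 in the second. It held 484 and 664 RPM in sa37 at 16 hpf, against 2272 and 3558 RPM in sa37 at 12 hpf. In WT it held 628 and 440 RPM at 16 hpf, against 2822 and 2177 RPM at 12 hpf. The stages did not overlap in either genotype, and 19.7% of the 12 hpf level was left in sa37 and 21.4% in WT. Its sa37 difference was -2.32 (SE 0.31, block-fit limma adjusted p 0.00645).

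The region at chr3:31967883-31968206 on the plus strand held 234 and 150 RPM in sa37 at 16 hpf, against 870 and 334 RPM in sa37 at 12 hpf. In WT it held 433 and 147 RPM at 16 hpf, against 909 and 601 RPM at 12 hpf. Replicates differed by more here than in the chromosome 5 region, but the stages still did not overlap within a genotype. Its sa37 difference was -1.52 (SE 0.27, block-fit limma adjusted p 0.0165).

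At chr9:46615217-46615391 on the minus strand, levels were 394 and 373 RPM in sa37 at 16 hpf, against 846 and 696 RPM in sa37 at 12 hpf. The WT levels were 346 and 284 RPM at 16 hpf, against 756 and 582 RPM at 12 hpf. This member kept a large share, 49.8% in sa37 and 47.1% in WT, and its sa37 difference was -0.999 (SE 0.15, block-fit limma adjusted p 0.00902).

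The fourth strongest member went a different way in sa37. At chr17:32670395-32670469 on the plus strand there were 261 and 564 RPM in sa37 at 16 hpf, against 328 and 524 RPM in sa37 at 12 hpf. WT had 250 and 329 RPM at 16 hpf, against 516 and 756 RPM at 12 hpf. One sa37 pair was lower and the other higher, and the stages overlapped in sa37 and not in WT. Its sa37 difference of -0.11 (SE 0.20, block-fit limma adjusted p 0.762) did not pass. A second member 4669 bases further along the same strand, at chr17:32675138-32675404, was called lower in sa37, with a difference of -1.004.

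The region at chr5:23802048-23802418 on the plus strand held 427 and 215 RPM in sa37 at 16 hpf, against 618 and 533 RPM in sa37 at 12 hpf, and missed the threshold narrowly (difference -0.92, SE 0.24, block-fit limma adjusted p 0.0530). In WT it held 226 and 195 RPM at 16 hpf, against 564 and 541 RPM at 12 hpf. The stages did not overlap in either genotype, but in sa37 replicate 1 kept more of the 12 hpf level than replicate 2.

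The member with the largest mean WT difference, chr20:31826740-31826809 on the minus strand, was unlike the other 7. It held 3.82 and 0 RPM in sa37 at 16 hpf, against 9.91 and 82.9 RPM in sa37 at 12 hpf. WT libraries held 0 and 9.17 RPM at 16 hpf, against 568 and 409 RPM at 12 hpf. Both sa37 libraries at 12 hpf were thus well below both WT libraries at that stage. WT levels at 12 hpf entered the choice of members, so this contrast of genotypes, like those below, is a description only. The sa37 pairs differed from each other, -1.18 against -6.39, and the mean of -3.78 (SE 1.31) did not pass (block-fit limma adjusted p 0.110).

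In the seventh and eighth strongest, the sa37 differences of the 2 pairs were close, at -1.03 and -1.09, and at -1.72 and -1.51. At chr15:19902699-19902874 on the plus strand, 172 and 357 RPM were counted in sa37 at 16 hpf, against 351 and 763 RPM in sa37 at 12 hpf. WT had 136 and 253 RPM at 16 hpf, against 302 and 635 RPM at 12 hpf. Here replicate 2 was higher in every group, and in sa37 the stages overlapped across replicates but not within one. In WT they did not overlap, and the sa37 difference was -1.06 (SE 0.14, block-fit limma adjusted p 0.00662). At chr24:12794592-12794618 on the minus strand, a region 26 bases wide, 92.0 and 132 RPM were left in sa37 at 16 hpf, against 306 and 379 RPM in sa37 at 12 hpf. WT held 133 and 105 RPM at 16 hpf, against 415 and 400 RPM at 12 hpf. The stages did not overlap in either genotype, and the sa37 difference was -1.62 (SE 0.23, block-fit limma adjusted p 0.00747).

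**Figure D3:**
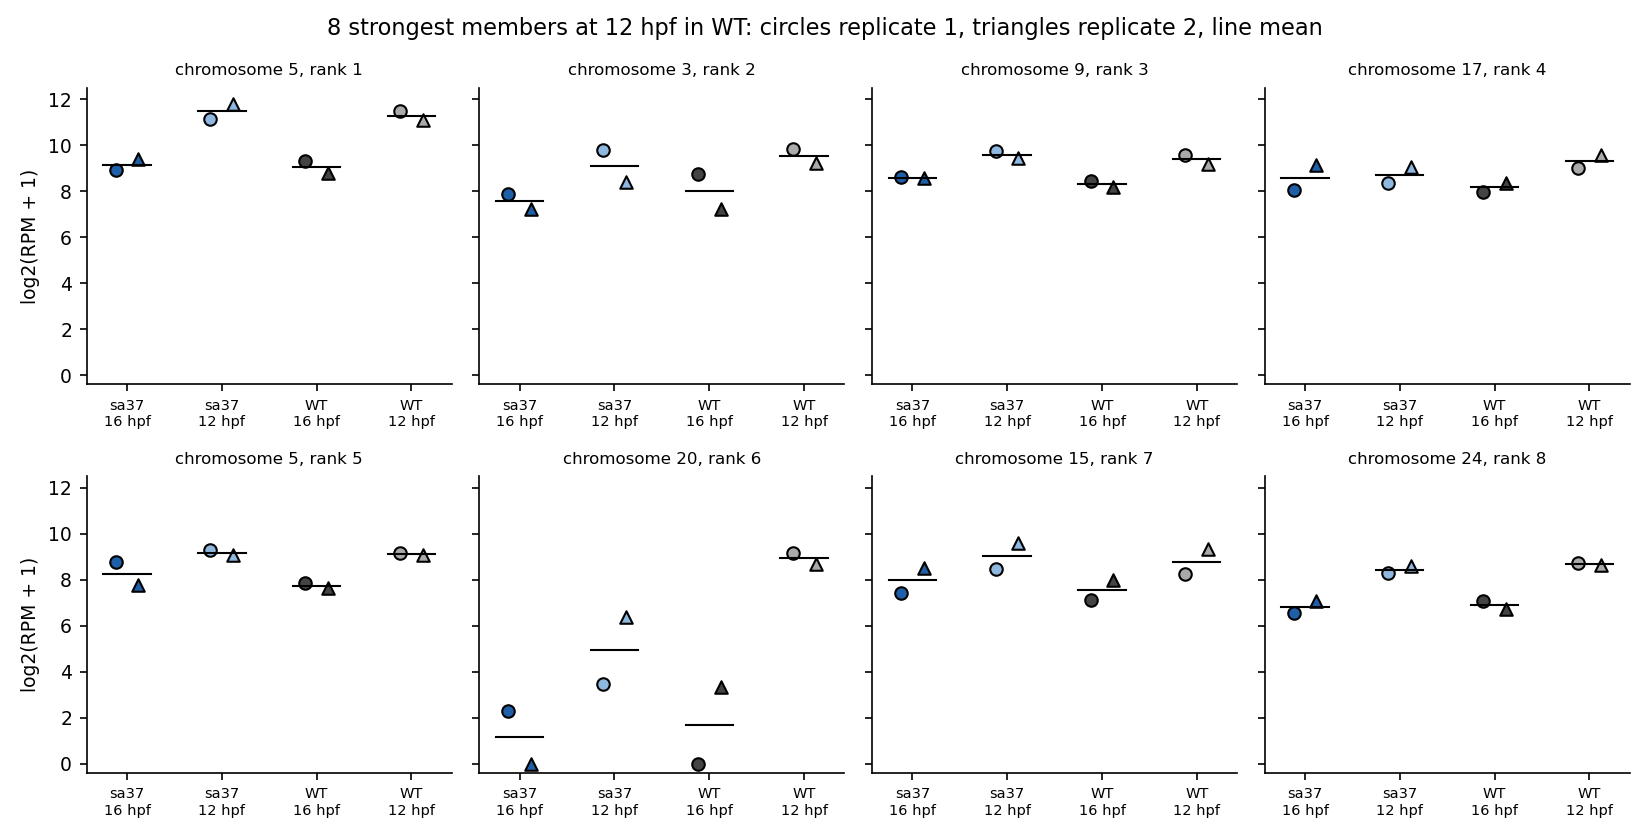
Each panel is 1 of the 8 members with the highest mean RPM at 12 hpf in WT, with log2(RPM + 1) on the y axis and the 4 groups on the x axis, sa37 left of WT and 16 hpf left of 12 hpf. Circles are replicate 1, triangles replicate 2 and lines their mean. The chromosome 5 region of rank 1 is lower at 16 hpf in both genotypes without overlap of the stages, and the chromosome 17 region overlaps between stages in sa37. The chromosome 20 region is lower in sa37 than in WT at 12 hpf, and its sa37 pairs differ by -1.18 and -6.39 between stages. WT levels entered the choice of members.

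Among the 8 members with the largest mean WT difference, 3 were called lower in sa37 with the block. The region at chr2:15046062-15046089 on the plus strand held 0.64 and 0 RPM in sa37 at 16 hpf, against 33.3 and 7.96 RPM in sa37 at 12 hpf (difference -3.78, SE 0.76, block-fit limma adjusted p 0.0235). WT held 0.73 and 0 RPM at 16 hpf, against 90.9 and 4.54 RPM at 12 hpf. At 12 hpf replicate 1 was well above replicate 2 in both genotypes.

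The region at chr25:352992-353002 on the minus strand, 10 bases wide, held 1.10 and 3.41 RPM in sa37 at 16 hpf, against 30.9 and 26.0 RPM in sa37 at 12 hpf (difference -3.27, SE 0.41, block-fit limma adjusted p 0.00553). WT held 2.20 and 1.39 RPM at 16 hpf, against 54.4 and 31.0 RPM at 12 hpf. The stages did not overlap in sa37, nor in WT, where each pair was lower by the choice of members. At chr19:13261664-13261739 on the plus strand, sa37 held 0 and 0.083 RPM at 16 hpf, against 1.96 and 0.973 RPM at 12 hpf (difference -1.22, SE 0.24, block-fit limma adjusted p 0.0222). WT held 0 and 0.168 RPM at 16 hpf, against 12.2 and 15.5 RPM at 12 hpf. At 12 hpf sa37 was thus below WT in both replicates, in a region chosen by its WT levels.

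The other 5 of these 8, which include the chromosome 20 region above, were not called, and in each of them replicates stood apart. At chr4:55829505-55829512 on the plus strand, sa37 held 17.3 and 11.003 RPM at 16 hpf, against 110 and 6.24 RPM at 12 hpf, and its pairs went in opposite directions. WT held 20.4 and 4.54 RPM at 16 hpf, against 189 and 208 RPM at 12 hpf. The region at chr21:39532465-39532718 on the minus strand also split by pair, with 8.03 and 118 RPM in sa37 at 16 hpf, against 20.7 and 47.2 RPM in sa37 at 12 hpf. In WT it held 5.57 and 7.69 RPM at 16 hpf, against 84.4 and 195 RPM at 12 hpf, without overlap.

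At chr10:12049633-12049656 on the minus strand, both sa37 libraries of replicate 1 were listed at 0, and those of replicate 2 held 3.57 RPM at 16 hpf, against 17.4 RPM at 12 hpf. WT held 0 and 2.06 RPM at 16 hpf, against 53.4 and 12.6 RPM at 12 hpf. The region at chr7:73604734-73604778 on the plus strand held 6.36 and 63.8 RPM in sa37 at 16 hpf, against 21.0 and 132 RPM in sa37 at 12 hpf. WT held 9.66 and 0.042 RPM at 16 hpf, against 34.7 and 128 RPM at 12 hpf. Both sa37 pairs were lower, with differences of -1.58 and -1.03, and the WT pairs had differences of -1.74 and -6.95. The block-fit limma adjusted p was 0.599 with all libraries and 0.0101 with the sa37 libraries alone.

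The 5 largest called sa37 differences among members not named so far ranged from -3.84 to -3.15. At chr12:30645939-30646116 on the minus strand, sa37 held 1.16 and 3.11 RPM at 16 hpf, against 39.9 and 39.3 RPM at 12 hpf (difference -3.77, SE 0.35, limma adjusted p 0.00215 in the block fit and 0.0518 without the block). WT held 4.53 and 2.73 RPM at 16 hpf, against 43.5 and 33.3 RPM at 12 hpf. The stages were far apart in both sa37 pairs, and also in both WT pairs, which were lower by the choice of members. At chr9:45030878-45031052 on the plus strand, sa37 held 1.27 and 2.70 RPM at 16 hpf, against 26.1 and 26.7 RPM at 12 hpf (difference -3.24, SE 0.38, block-fit limma adjusted p 0.00435). WT held 1.28 and 2.14 RPM at 16 hpf, against 38.6 and 19.3 RPM at 12 hpf.

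The region at chr7:7186869-7186973 on the minus strand had the smallest adjusted p of these 5. It held 0.52 and 0.955 RPM in sa37 at 16 hpf, against 11.5 and 17.8 RPM in sa37 at 12 hpf (difference -3.15, SE 0.18, limma adjusted p 0.000772 in the block fit and 0.0753 without the block). WT held 0.55 and 0.967 RPM at 16 hpf, against 16.4 and 30.7 RPM at 12 hpf. The level left was 5.03% in sa37 and 3.22% in WT.

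The remaining pair of the 5 lay on chromosome 2 near the region at 15046062 described above. At chr2:15082747-15082755 on the plus strand, sa37 held 0 and 0.208 RPM at 16 hpf, against 16.7 and 13.0 RPM at 12 hpf (difference -3.84, SE 0.63, block-fit limma adjusted p 0.0125). WT held 0 and 0.042 RPM at 16 hpf, against 21.4 and 2.91 RPM at 12 hpf. At chr2:15155985-15156240 on the plus strand, sa37 held 0 and 0.208 RPM at 16 hpf, against 9.31 and 9.10 RPM at 12 hpf (difference -3.22, SE 0.56, block-fit limma adjusted p 0.0151). Its WT libraries were listed at 0 at 16 hpf, against 15.2 and 2.61 RPM at 12 hpf. The 3 called members of this stretch of chromosome 2 were thus under 1 RPM in all 16 hpf libraries of both genotypes. Another member among them, at chr2:15063458-15063523 on the plus strand, had a sa37 difference of -0.36 and was not called (block-fit limma adjusted p 0.707), with 0 and 0.859 RPM in sa37 at 12 hpf.

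At the other end, the 5 members with the highest sa37 difference ranged from 0.02 to 0.48, and the chromosome 21 region above was one of them. At chr4:44011135-44011157 on the plus strand, sa37 held 5.43 and 6.39 RPM at 16 hpf, against 0 and 23.5 RPM at 12 hpf, so its pairs went in opposite directions. WT there held 9.05 and 0.42 RPM at 16 hpf, against 26.2 and 9.30 RPM at 12 hpf. At chr18:17545568-17545574 on the plus strand, sa37 held 7.63 and 1.99 RPM at 16 hpf, against 8.12 and 1.15 RPM at 12 hpf. WT at that region held 7.89 and 2.10 RPM at 16 hpf, against 29.9 and 7.41 RPM at 12 hpf. The sa37 libraries of both stages were thus near the WT level of 16 hpf at this place, which was chosen by its WT levels. Another 2 of the 5 were listed at 0 in both sa37 libraries of replicate 1. At chr2:48612184-48612230 on the minus strand the sa37 libraries held 0 and 0.291 RPM at 16 hpf, against 0 and 0.172 RPM at 12 hpf, and at chr19:1979408-1979418 on the minus strand they held 0 and 2.41 RPM at 16 hpf, against 0 and 2.29 RPM at 12 hpf.

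Of the 99 members not called with the block, 70 had both sa37 pairs lower, and 9 had both lower by at least 1. Their median sa37 difference was -0.66. In 15 of the 99 the mean of the 4 sa37 libraries was under 1 RPM, a level at which the scale leaves little room for a difference. Whether that level kept them from being called was not tested. Leaving such regions out, 193 of the 277 members with a mean of at least 1 RPM in sa37 were called (69.7%), against 2.9% of all tested regions at that level. Both sa37 libraries at 12 hpf were under 0.5 RPM in 6 members (2.0%), a share near the 1.2% of all tested regions. One of these members, on the unplaced sequence KN149704 from 8703 to 8707 on the minus strand, was listed at 0 in all 4 sa37 libraries. In WT it held 0 and 3.45 RPM at 16 hpf, against 22.1 and 11.3 RPM at 12 hpf, values that entered the choice of members.

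At the border of the rule, the member just inside was chr9:20672982-20673373, with WT differences of -1.001 and -1.18, and the region just outside was chr9:46609287-46609915, with -1.04 and -0.999. The border cuts a continuous range: of the 3 members just inside, the sa37 differences ran from -1.31 to -0.88, and of the 3 regions just outside from -1.07 to -0.95.

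Called members were found at all levels. By the mean at 12 hpf in WT, 38 of 70 members under 5 RPM were called in sa37 with the block (54.3%), 86 of 126 from 5 to 20 RPM (68.3%), 54 of 75 from 20 to 100 RPM (72.0%) and 18 of 24 at 100 RPM or more. In all tested regions of these levels the shares called lower were 2.3%, 3.2%, 3.0% and 3.9%. The median level left in sa37 was 29.2% under 5 RPM and 43.0% at 100 RPM or more, and in WT 17.2% and 37.7%. The rule adds 1 to each value, so it asks for a lower percentage left in weak members than in strong ones.

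Cluster width was not used by the rule. The median width of a merged region was 101 bases in members, against 92 in all tested regions, and the middle range was wider in members, from 40.5 to 189.5 bases against 54 to 182. The narrowest class was the one most over its share: 36 of 295 (12.2%) were 10 bases wide or less, against 4.9% of all tested regions. Widths of 51 to 100 bases held 19.7% of members, against 31.7% of all, and widths over 200 bases 23.1%, against 21.7%. The strongest single cluster of a region had a median width of 72 bases in members, against 68 in all regions, in the first list, and of 62 against 67 in the second. These shares are a description without a test.

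By merged width, which could differ from that in either list, the sa37 pairs were less alike in narrow members than in broad ones, again without a test. Of the members of 10 bases or less, 12 of 36 were called in sa37 with the block (33.3%) and 24 of 36 had both pairs lower (66.7%), where 5.2% of all tested regions of that width were called. Of those over 200 bases, 56 of 68 were called (82.4%) and 66 of 68 had both pairs lower (97.1%), where 3.8% of all were called. The median gap between the sa37 differences of the 2 pairs was 0.49 in members of 10 bases or less and 0.31 in those over 200, against 0.35 and 0.26 in all tested regions of those widths. The narrowest members had a median of 9.25 RPM at 12 hpf in WT and the widest 14.0 RPM, and the part of level in the difference was not tested. In the narrowest members 43.6% of the 12 hpf level was left in sa37 at the median, with 18.6% in WT, and in the widest 33.2% in sa37, with 24.5% in WT.

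**Figure D4:**
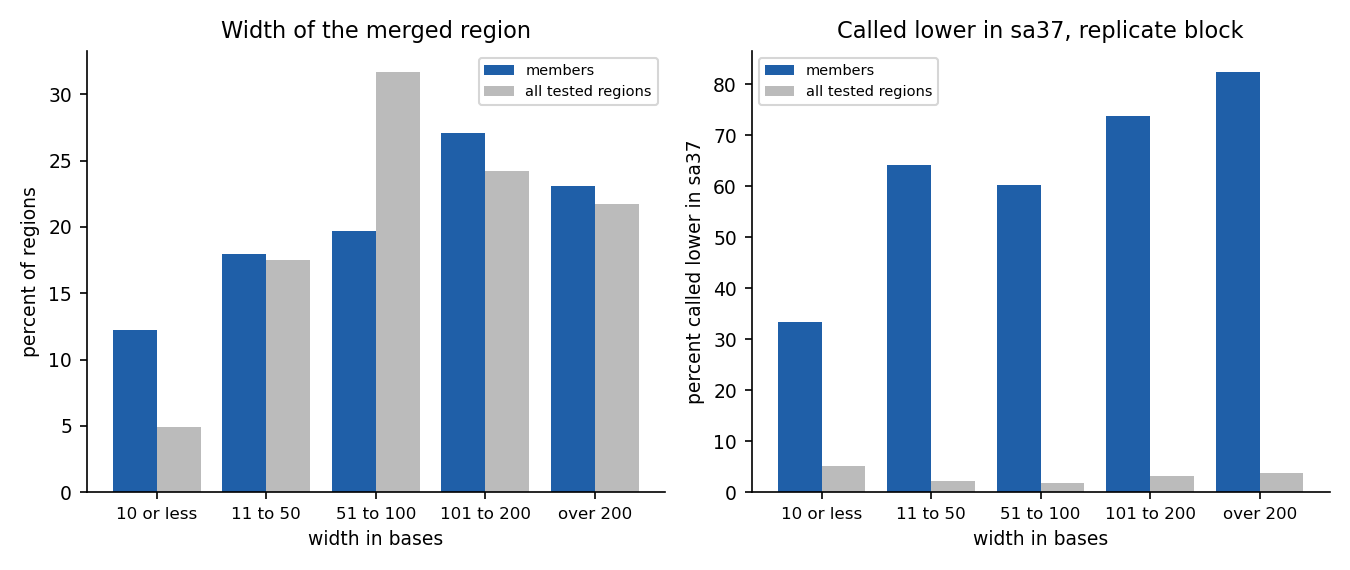
The left panel gives the percentage of members and of all tested regions in each class of width of the merged region, in bases, and the right panel the percentage in each class called lower at 16 hpf in sa37 by limma with the replicate block. Members of 10 bases or less make up 12.2% of members, against 4.9% of all regions, and 33.3% of them are called in sa37, against 82.4% of members over 200 bases. A merged region can be broad in the first list and narrow in the second.

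Members lay on all 25 chromosomes and on 4 unplaced sequences, with 154 of the 295 on the plus strand. Their share of the tested regions of a chromosome ran from 0.69% on chromosome 16 to 2.28% on chromosomes 2 and 8, and was 1.86% on unplaced sequences. The median distance from a member to the nearest other tested region was 10049 bases, against 7565 bases for all tested regions. No other tested region lay within 20 kb of 110 members (37.3%), against 32.6% of all regions.

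Members often lay near each other. Another member lay within 20 kb of 68 members (23.1%), against 2.3% of all tested regions. On the same strand within 1 kb, 33 members (11.2%) had another tested region, against 12.7% of all regions, and 12 (4.1%) had another member, against 0.2% of all regions. For 0 of the 33 was that neighbour one of the 855 regions at least 1 higher in both WT pairs, which is close to the 1.7% of all tested regions with a same-strand neighbour at that distance. Within 20 kb, 4 members (1.4%) had such a region, against 4.2% of all tested regions. A start on the opposite strand within 500 bases upstream, or overlapping from that side, was found for 8 members (2.7%), against 4.8% of all regions. In 4 of the 8 it was itself a member, against 8 of the 913 such cases among all tested regions. The 363 regions within 20 kb of a member that were not members had a median sa37 difference of -0.12, and 9.64% of them were called lower in sa37 with the block, against 2.84% of all tested regions.

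Joined across gaps of at most 20 kb, the members formed 256 separate loci, of which 227 held a single member and 29 held 2 to 4. In 24 of the 29 groups the members were on 1 strand. Neighbouring starts on a strand can belong to 1 gene, and tags inside a gene can come from fragments that were capped again after processing, so members of a group are not independent of each other.

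Of these groups, 3 held 4 members. In chr5:3238652-3255083, on the minus strand, the strongest member of all stood with 3 weaker ones. The weaker ones at 3238652 and 3239349 were called lower in sa37 (differences -2.19 and -2.27, block-fit limma adjusted p 0.0126 and 0.0149), close to the -2.32 of the strong start. The one at 3254995, the farthest upstream, had a difference of -0.49 and was not called (block-fit limma adjusted p 0.165). It held 0.58 and 2.16 RPM in sa37 at 16 hpf, against 1.71 and 2.63 RPM in sa37 at 12 hpf.

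A further group, in chr5:23795958-23805446 on the plus strand, had sa37 differences from -1.37 to -0.86. Its first start, at 23795958, was weak in sa37, with 0 and 0.083 RPM at 16 hpf, against 0.85 and 0.916 RPM at 12 hpf, and was called (block-fit limma adjusted p 0.0403). WT there held 0 and 0.252 RPM at 16 hpf, against 6.67 and 4.67 RPM at 12 hpf. The last start, at 23805166, held 24.9 and 11.8 RPM in sa37 at 16 hpf, against 56.6 and 37.2 RPM in sa37 at 12 hpf, and was called as well (block-fit limma adjusted p 0.00902). Of the starts between them, the strong one described above was not called, and the one at 23804919 was (block-fit limma adjusted p 0.0362).

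In chr8:52894258-52923582, all 4 members lay on the minus strand and were called in sa37 with the block, with differences from -1.58 to -1.01. Another 5 tested regions of the same strand lay among them, and all 5 had lower sa37 means at 16 hpf, with 3 of the 5 called. A strong member stood 28530 bases further on, at chr8:52952112-52952288 on the same strand. It held 57.6 and 96.0 RPM in sa37 at 16 hpf, against 189 and 287 RPM in sa37 at 12 hpf (difference -1.63, SE 0.15, block-fit limma adjusted p 0.00207). WT held 44.7 and 78.0 RPM at 16 hpf, against 169 and 309 RPM at 12 hpf. The stages did not overlap in either genotype.

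**Figure D5:**
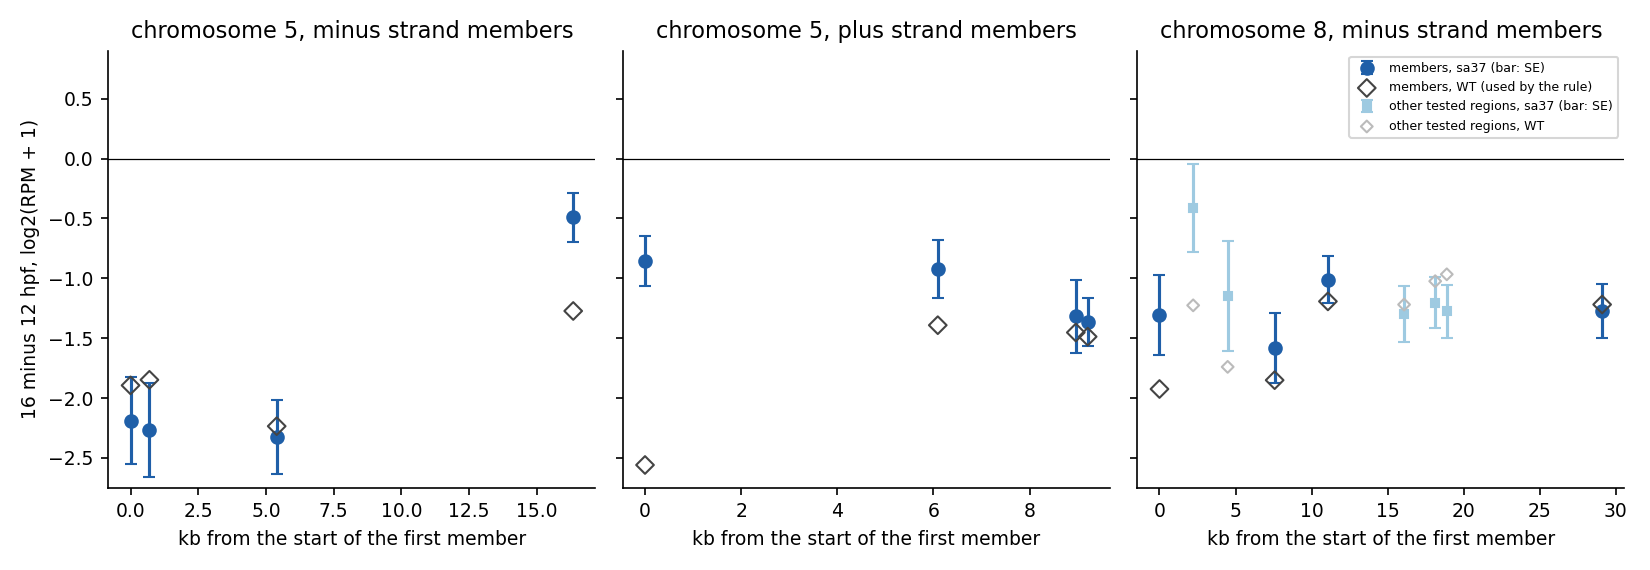
The 3 groups of 4 members are drawn by distance in kb from the start of the first member, with the 16 minus 12 hpf difference on the log2(RPM + 1) scale on the y axis. Filled circles with SE bars are sa37 values of members, open diamonds WT values, and pale squares and small grey diamonds the sa37 and WT values of other tested regions between them. All sa37 points lie below 0, and the chromosome 5 member at the right of the first panel has the smallest sa37 difference of its group, -0.49.

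Of the groups of 3, that on chromosome 10 from 45138197 to 45155591 was led by a start at 45155413 on the minus strand, with 15.4 and 37.9 RPM in sa37 at 16 hpf, against 88.3 and 126 RPM in sa37 at 12 hpf. WT there held 11.8 and 24.7 RPM at 16 hpf, against 139 and 113 RPM at 12 hpf. All 3 of its members were called in sa37 with the block. On chromosome 9 from 46605361 to 46615391, 2 of 3 were called, and the third, at 46614795, had a sa37 difference of -0.54 (block-fit limma adjusted p 0.0704). The region just outside the rule, at 46609287, lay between them and had a sa37 difference of -1.07 (block-fit limma adjusted p 0.00608). On chromosome 7, a start at 38540389 on the minus strand overlapped one at 38540418 on the plus strand. The plus-strand start was called in sa37 (difference -1.60, block-fit limma adjusted p 0.00608), and the minus-strand one was not (difference -1.46, block-fit limma adjusted p 0.0699).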

How the data were processed

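CAGE was run on whole zebrafish embryos in 4 groups of 2 libraries, grouped by their titles. The deposited values are RPM, 1 value per tag cluster, as inferred from column sums and from steps between low values. BWA, HISAT2 and danRer10 are named in the submitters' processing notes; the clustering method is not given in the sources used here. The implied depth is 1000000 divided by the step of a file, and floors of 3 tags cover counting error only.

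Repeated rows (412 and 796 per file) were dropped. Clusters on 1 strand that shared at least 1 base between lists, with the end read as exclusive, were merged into 42130 regions and their RPM added. Of these, 23602 were covered by both lists and 19000 had a mean of at least 1 RPM over 8 libraries. The other 6397 and 12131 regions, of list 1 and list 2 alone, were not tested. Scaffold names of the lists were matched by their accession root.

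The test was limma 3.58.1 (R 4.3.3) on log2(RPM + 1), all 8 libraries, a mean per group, two-sided, Benjamini-Hochberg over all regions, called under 0.05. The code was run on simulated data whose replicate shifts were those a block assumes, so that run cannot decide whether a block suits these data. The same model was refitted with replicate number as a blocking term. Libraries of the same number share a cluster list, and the differences between replicates correlated across regions with r of 0.68 to 0.83 between groups, so block values are printed. The SE given is that of the block fit. The members and lists were chosen with earlier results of these data known. Regions named are the 8 with the highest WT level at 12 hpf, the 8 with the largest WT difference, the 5 largest called and the 5 highest sa37 differences, and 3 on each side of the border of the rule. Members of groups of neighbours, and the windows of 20 kb, 1 kb and 500 bases, were chosen after their values were seen. Alternatives were other pseudocounts, filters, merging, normalization, libraries and rule thresholds.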

Additional observations from a re-analysis of the deposited data

Results flagged for a closer look

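Regions covered by 1 cluster list alone entered no comparison, and some of them were also lower at 16 hpf. In list 1, of 1530 such regions averaging 1 RPM or more in its 4 libraries, 147 were lower by at least 1 in WT, and 46 of these were lower by at least 1 in sa37 as well. In list 2, of 1251 such regions, 17 were lower by at least 1 in WT and 9 of these in sa37 as well. All 17 of list 2 were lower in sa37 by some amount, and 87 of the 147 of list 1. The median sa37 difference was -1.15 over the 17 and -0.35 over the 147. How many of all 1530 and 1251 regions were lower in sa37 is not given here, so these counts stand without a background share. The regions were seen in 1 replicate only and were not tested.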

How the results depend on the processing

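The count of members called lower in sa37, 0 without the replicate block, was 196 with it. The share of all regions called follows each count. With the block it was 109 (1.04%) with a pseudocount of 0.1, 138 of 173 (3.53%) with a mean of at least 5 RPM, 197 of 293 (2.85%) with clusters within 100 bases merged, 195 (2.85%) with values below 0.5 RPM set to 0, 215 (4.65%) after quantile normalization, 228 (3.78%) in the sa37 libraries alone and 33 (2.84%) of the 41 members with both WT differences at or below -2. Without the block it was 0 (0%) in the sa37 libraries alone. It was 45 (0.274%) after quantile normalization, 1 (0.00424%) without a filter and 2 (0.0168%) with a mean of at least 5 RPM, also without the block. Leaving out 1 library gave 0 throughout without the block, with 81 to 138 members at an unadjusted limma p under 0.05. With the block it gave 194 to 196 without a WT library, 92 and 102 without sa37 at 12 hpf replicate 1 and 2, and 55 and 105 without sa37 at 16 hpf replicate 1 and 2. The median sa37 difference was -1.52 with a pseudocount of 0.1, -1.38 after quantile normalization, where the median of all regions moved to -0.05 from 0.12, -1.28 with a mean of at least 5 RPM and -2.23 for the stricter rule, and ran from -1.59 to -0.92 with a library left out, including -1.07 and -1.27 in the block fit without sa37 at 16 hpf replicate 1 and 2. The rule gave 505 members with a pseudocount of 0.1, 173 with a mean of at least 5 RPM and 41 at -2, and 446 to 769 when 1 WT pair alone was used. The count tests planned on recovered tags were not run, because the step of list 1 could be read only from the spacing of values. For the named regions, 455 alternative values had the same direction and did not pass, 169 had the same direction and passed, and 36 changed sign, all of them in 9 regions not called in the block fit. What caused these shifts was not tested. The block variants with a second change were chosen after seeing the data. In block fits without 1 sa37 library, the WT libraries enter the sa37 difference as well.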
